A study of Mus musculus with 12 samples.

Results

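The genes described here encode the mouse Fc gamma receptors, which bind the constant region of IgG antibodies, and the signalling chain that the activating receptors share. The members were chosen by gene symbol: Fcgr1, Fcgr4 and Fcgr3 (activating receptors), Fcer1g (the shared chain) and Fcgr2b (the inhibitory receptor). Each was read by 1 probe set with that symbol alone, which makes 5 of the 19938 genes measured. Gene expression was measured on 12 Affymetrix Mouse Gene 1.0 arrays of skin from female Balb/c mice, in 4 groups of 3 biological replicates. Skin was taken 1.5 h, 6 h or 24 h after RNAdjuvant, labelled as a dose of 25 mg, was injected into the dermis, and skin of untreated mice was the only control. RNAdjuvant is a candidate vaccine adjuvant, an RNA complexed with a peptide. An injection of carrier alone was not analysed here, so the needle and the volume cannot be told apart from the agent, and no source used here gives the age of the mice or the body site.

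Activating Fc gamma receptors bind antibody-coated particles and depend on the Fc receptor gamma chain, encoded by Fcer1g, to reach the cell surface and to signal. The chain carries an activation motif (ITAM) that is phosphorylated by Src family kinases and then recruits the kinase Syk, which leads to phagocytosis, oxidative burst and cytokine release. The inhibitory receptor encoded by Fcgr2b carries an inhibition motif (ITIM) in its own tail and recruits the inositol phosphatase encoded by Inpp5d, which damps that signal. Macrophages, monocytes and dendritic cells carry several of these receptors, mouse NK cells carry the product of Fcgr3, and B cells carry that of Fcgr2b alone. Interferons are known to raise Fcgr1 and Fcgr4 in myeloid cells.

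The promoters of the activating receptor genes are shown because interferon-response and myeloid-factor motifs were searched in them. Each window runs from 250 bases before to 50 bases after a RefSeq start (GRCm38.p6) and is written on the gene's own strand. All 5 members were found in the RefSeq promoter table. The motifs were TTCNNNGAA (the palindromic STAT site called GAS), GAAANNGAAA (the core of the interferon-stimulated response element, ISRE) and GAGGAA (the core of the site of the myeloid factor PU.1, encoded by Spi1), each read on both strands, and capitals mark the matches.
Fcgr1, chr3:96293920-96294219, minus strand: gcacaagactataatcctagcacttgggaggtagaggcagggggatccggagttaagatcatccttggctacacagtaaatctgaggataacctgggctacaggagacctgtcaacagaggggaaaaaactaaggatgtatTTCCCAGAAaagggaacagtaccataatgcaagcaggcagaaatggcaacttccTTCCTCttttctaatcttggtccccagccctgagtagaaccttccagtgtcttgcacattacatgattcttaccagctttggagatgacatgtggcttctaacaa
Fcgr4, chr1:171018676-171018975, plus strand: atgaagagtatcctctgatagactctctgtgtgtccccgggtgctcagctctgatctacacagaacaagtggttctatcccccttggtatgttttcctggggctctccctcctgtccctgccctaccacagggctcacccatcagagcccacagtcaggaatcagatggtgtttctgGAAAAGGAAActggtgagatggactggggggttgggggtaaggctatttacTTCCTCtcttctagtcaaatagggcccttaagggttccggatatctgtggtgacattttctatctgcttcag
Fcgr3, chr1:171059354-171059653, minus strand: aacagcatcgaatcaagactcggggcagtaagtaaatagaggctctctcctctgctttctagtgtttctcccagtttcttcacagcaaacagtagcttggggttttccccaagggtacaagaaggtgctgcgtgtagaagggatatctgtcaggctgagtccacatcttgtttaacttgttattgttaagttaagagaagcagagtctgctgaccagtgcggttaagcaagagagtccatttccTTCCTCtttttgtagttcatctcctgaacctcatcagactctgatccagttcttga

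In Fcgr1 the GAS match TTCCCAGAA lay 109 to 101 bases before the start, and the PU.1 core, read on the opposite strand as TTCCTC, 55 to 50 bases before it. In Fcgr4 the ISRE match GAAAAGGAAA lay 73 to 64 bases before the start and the PU.1 core 22 to 17 bases before it. Fcgr3, which has 2 annotated starts, held the PU.1 core alone, 6 to 1 bases before the start shown. None of the 3 motifs was found in the windows of Fcgr2b and Fcer1g. Of 32851 mouse promoter windows of this kind, 8.3% held the GAS letters, 3.44% the ISRE letters and 28.3% the PU.1 letters. A match is a description of letters in this window, not of a bound site.

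The deposited values are log2 intensities, and array medians lay between 5.53 and 5.76. Keratin and collagen genes marked the samples as skin, with a mean level of the 9 skin genes between 11.3 and 11.8 on all 12 arrays. Correlations over all probe sets ran from 0.98 to 0.987 within groups (12 pairs) and from 0.961 to 0.986 between them (54 pairs). In 1.5 h replicate 1 and 6 h replicate 1 Glycam1, a gene of lymph node vessels, measured 11.38 and 10.88, against 3.87 to 4.46 on the other 10 arrays. The B cell receptor gene Cd79b measured 7.80 and 7.29 on those arrays, against 4.42 to 5.27 on the others. Without both arrays the number of receptor genes that changed was the same as with them at 1.5 h (0), 6 h (2) and 24 h (3) against untreated skin.

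Fcgr1 and Fcgr4 rose between 1.5 h and 6 h and stayed high at 24 h, Fcer1g was higher at 24 h, and Fcgr3 and Fcgr2b did not pass the test at any time. At 6 h, 2 of the 5 genes were higher than in untreated skin, where 3.38% of all genes were called higher (limma, adjusted p under 0.05). At 24 h 3 of 5 were higher, where 2.55% of all genes were. Set against 1.5 h, 2 of 5 were higher at 6 h (5.47% of all genes) and 3 of 5 at 24 h (2.24% of all genes). At 1.5 h 0 of 5 were called, against 0.612% of all genes called higher, and 2 of the 5, Fcgr1 and Fcer1g, had an unadjusted p under 0.05, as did 17.5% of all genes. Over the 3 times together 3 of the 5 changed (moderated F test, adjusted p = 4.72e-07 for Fcgr1, 9.98e-08 for Fcgr4 and 0.00315 for Fcer1g, against 0.739 for Fcgr3 and 0.162 for Fcgr2b), where 11.4% of all genes did. The arrays were made from whole skin, so more cells of a type and more RNA per cell cannot be told apart in any value here.

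**Figure D1:**
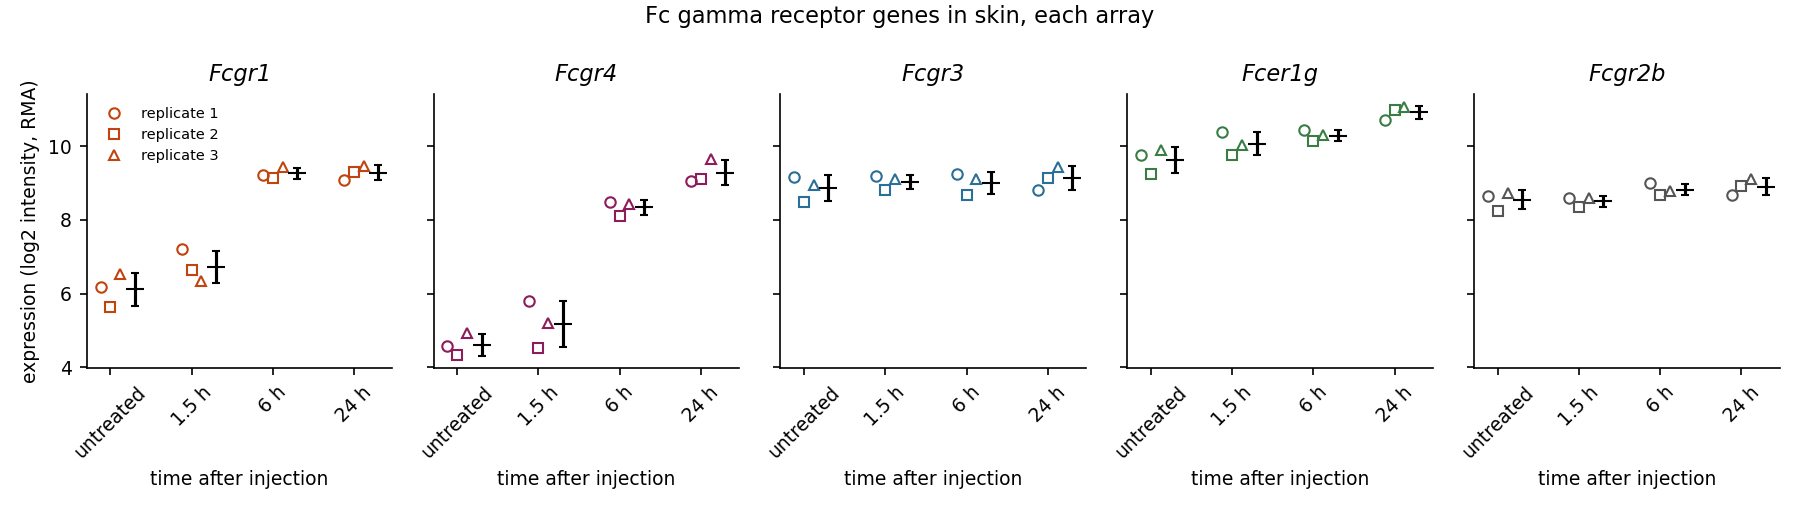
Log2 intensity of each receptor gene on each of the 12 arrays (open symbols, by replicate number), with the group mean and SD of 3 arrays beside them (black). The 6 h and 24 h arrays of Fcgr1 and Fcgr4 lie above all their untreated and 1.5 h arrays, while the treated arrays of Fcgr3 and of Fcgr2b overlap with their untreated arrays at each time.

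Fcgr1 encodes the high-affinity IgG receptor of macrophages, monocytes and dendritic cells (probe set 10500335, chromosome 3). At 6 h its log2 intensity was 9.23, 9.14 and 9.43 in the 3 treated samples, against 6.19, 5.63 and 6.53 in untreated skin. At 24 h it was 9.08, 9.30 and 9.46. All 6 of these treated samples lay above every untreated one, as was so for 11.4% of all genes at 6 h and 10.9% at 24 h. The 6 h and 24 h samples overlapped. Fcgr1 was 8.88-fold higher at 6 h (log2 change 3.15, 95% interval 2.65 to 3.65, limma adjusted p = 7.97e-07). At 24 h it was 8.96-fold higher (3.16, 2.67 to 3.66, limma adjusted p = 1.45e-06), and between 24 h and 6 h the change was 0.01 (-0.48 to 0.51, limma adjusted p = 0.983).

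At 1.5 h Fcgr1 measured 7.20, 6.63 and 6.34, against the same untreated values, and the groups overlapped. The log2 change was 0.61 (0.11 to 1.104) and did not pass (limma adjusted p = 0.19). The 1.5 h value of 7.20 came from the array with Glycam1 at 11.38, and without that array the change was 0.37. Over the 12 fits that each leave out 1 array it ran from 0.36, with a different array left out, to 0.81. Set against 1.5 h, Fcgr1 was 2.54 log2 units higher at 6 h and 2.56 higher at 24 h (limma adjusted p = 8.10e-06 and 1.62e-05).

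Fcgr4 encodes an activating receptor of intermediate affinity carried by monocytes, macrophages and neutrophils (probe set 10351509, chromosome 1). Its log2 intensity was 8.48, 8.11 and 8.43 at 6 h, against 4.58, 4.34 and 4.92 in untreated skin. At 24 h it was 9.04, 9.11 and 9.66. All treated samples of 6 h and 24 h lay above all untreated ones (11.4% and 10.9% of all genes in that direction). The 24 h samples lay above the 6 h samples (14.2% of all genes). Fcgr4 was 13.2-fold higher at 6 h (log2 change 3.73, 3.15 to 4.30, limma adjusted p = 6.07e-07) and 25.3-fold higher at 24 h (4.66, 4.09 to 5.23, limma adjusted p = 2.49e-07). The 24 h rise ranked 4 among the rises of all 19938 genes, where that of Fcgr1 ranked 32 and that of Fcer1g 212. In untreated skin Fcgr4 stood at percentile 20.7 to 30.6 of the genes on its array, and Fcgr1 at 40.3 to 54.5. At 24 h the means of Fcgr4 and Fcgr1 were 9.27 and 9.28. The larger rise of Fcgr4 over untreated skin thus starts from a lower signal, and what part of that signal was background was not tested.

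At 1.5 h Fcgr4 measured 5.79, 4.54 and 5.20, against the untreated values above, and the groups overlapped (log2 change 0.56, -0.01 to 1.13, limma adjusted p = 0.295). The highest of these again came from 1.5 h replicate 1, and the change was 0.25 without it. With each array left out in turn the change ran from 0.25 to 0.88. Between 24 h and 6 h Fcgr4 differed by 0.93 log2 units (0.36 to 1.50, a ratio of 1.91, limma adjusted p = 0.073). The 2 groups did not overlap, as was so for 14.2% of all genes in that direction, and 0 of the 5 receptor genes passed between 24 h and 6 h, where 2.03% of all genes were called higher. Of the 5, only Fcgr4 and Fcer1g had an unadjusted p under 0.05 there, as did 20.6% of all genes. The test depended on other arrays in the fit: without 1.5 h replicate 1 or without 1.5 h replicate 2, which add only to the shared estimate of the spread, the adjusted p of Fcgr4 was 0.0356 and 0.0385. Over the alternatives tried this adjusted p ran from 0.0356 to 0.261 and was under 0.05 in 7 of 24.

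The distance between the activating pair was followed within each array. The difference Fcgr4 minus Fcgr1 within each array, set to a mean of 0 in untreated skin, measured 1.47, 1.31 and 1.70 at 24 h, against 0.75, 0.47 and 0.51 at 6 h. Its means were 1.49 ± 0.20 at 24 h and 0.58 ± 0.16 at 6 h (SD, n = 3 each), and the arrays of the 2 times did not overlap. The difference of 0.92 between those times had p = 0.1 in a two-sided exact permutation test, the smallest p that 3 against 3 arrays can give. This pair was chosen after the values were seen.

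Fcgr3 encodes a low-affinity activating receptor shared by macrophages, neutrophils, mast cells and NK cells (probe set 10360040, chromosome 1). It measured 9.16, 8.48 and 8.96 in untreated skin, 9.19, 8.82 and 9.11 at 1.5 h, 9.23, 8.66 and 9.11 at 6 h, and 8.81, 9.13 and 9.45 at 24 h. Its 4 groups overlapped, with means between 8.87 and 9.13. Its log2 change was 0.17 (-0.27 to 0.61) at 1.5 h, 0.13 (-0.31 to 0.57) at 6 h and 0.26 (-0.18 to 0.70) at 24 h, with limma adjusted p = 0.713, 0.72 and 0.556. At 6 h and 24 h the intervals leave room for a change of up to 0.70 log2 units but not for one of the size of Fcgr1 or Fcgr4.

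Fcer1g encodes the Fc receptor gamma chain (probe set 10360070, chromosome 1). At 24 h it measured 10.72, 10.97 and 11.05, against 9.75, 9.23 and 9.89 in untreated skin, and the groups did not overlap, as was so for 10.9% of all genes in that direction. It was 2.45-fold higher at 24 h (log2 change 1.29, 0.90 to 1.69, limma adjusted p = 0.000748). At 6 h it measured 10.43, 10.14 and 10.29, also above all untreated samples (11.4% of all genes in that direction), with a change of 0.66 (0.27 to 1.06, a ratio of 1.58) that lay at the threshold (limma adjusted p = 0.0501). Over the alternatives tried this adjusted p ran from 0.0182 to 0.145 and was under 0.05 in 10 of 24.

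At 1.5 h Fcer1g measured 10.39, 9.77 and 10.02, which overlapped with untreated skin (change 0.44, 0.04 to 0.83, limma adjusted p = 0.235, and 0.27 without 1.5 h replicate 1). With each array left out in turn the change ran from 0.24, without an array other than 1.5 h replicate 1, to 0.58. At 24 h it was 0.85 log2 units higher than at 1.5 h (limma adjusted p = 0.021). That call was lost without 1.5 h replicate 2 (adjusted p = 0.114), 1.5 h replicate 3 (0.0727), 24 h replicate 2 (0.09) or 24 h replicate 3 (0.0739). The change between 24 h and 6 h was 0.63 (0.23 to 1.03, limma adjusted p = 0.078). In that comparison the groups did not overlap, as was so for 14.2% of all genes in that direction.

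Fcgr2b encodes the inhibitory receptor (probe set 10360028, chromosome 1). It measured 8.64, 8.25 and 8.73 in untreated skin, 8.60, 8.34 and 8.59 at 1.5 h, 8.99, 8.68 and 8.80 at 6 h, and 8.67, 8.92 and 9.12 at 24 h. At every time at least 1 treated sample lay within the untreated range. The log2 change was -0.03 (-0.36 to 0.29) at 1.5 h, 0.28 (-0.05 to 0.61) at 6 h and 0.36 (0.03 to 0.69) at 24 h, with limma adjusted p = 0.936, 0.287 and 0.249. Fcgr2b and Fcgr3 are close relatives in sequence, and whether a probe of one binds transcripts of the other was not tested. Their deviations from the group means correlated at r = 0.925 over the 12 arrays, against 0.605 to 0.899 for the other pairs of these 5 genes.

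**Figure D2:**
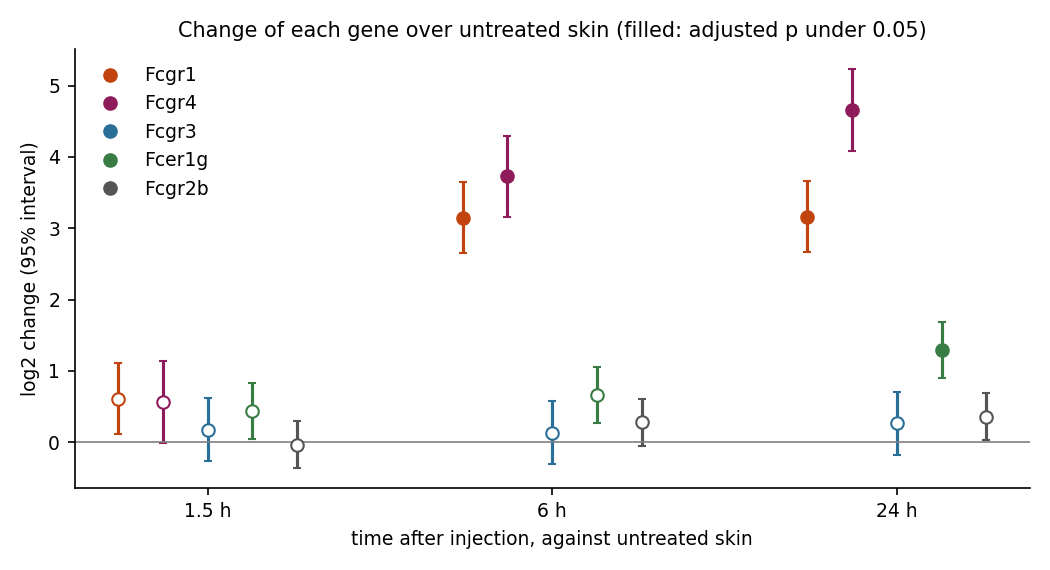
Log2 change of each receptor gene over untreated skin at 1.5 h, 6 h and 24 h (points) with its 95% interval from limma (bars), filled where the adjusted p was under 0.05. Fcgr1 and Fcgr4 were near 3.15 and 3.73 at 6 h, Fcer1g reached 1.29 at 24 h, and the intervals of Fcgr3 include 0 at each time.

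Setting each activating gene against the inhibitory gene on the same array asks whether they moved apart. Fcgr1 minus Fcgr2b, with the untreated mean at 0, measured 2.67, 2.89 and 3.06 on the 6 h arrays and 2.84, 2.80 and 2.77 on the 24 h arrays, against -0.02, -0.20 and 0.22 in untreated skin. Fcgr4 minus Fcgr2b measured 3.42, 3.36 and 3.57 on the 6 h arrays and 4.31, 4.12 and 4.48 on the 24 h arrays, against -0.13, 0.01 and 0.12 in untreated skin. For Fcer1g minus Fcgr2b the 6 h arrays gave 0.36, 0.38 and 0.41 and the 24 h arrays 0.97, 0.97 and 0.86, against 0.03, -0.10 and 0.07 in untreated skin. The replicates of Fcer1g thus lay closer together than in its own log2 values. On the 1.5 h arrays Fcer1g minus Fcgr2b gave 0.71, 0.35 and 0.36, also above untreated skin and overlapping with the 6 h arrays.

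In the fit of these differences across all genes, Fcgr1 and Fcgr4 were higher relative to Fcgr2b at 6 h by 2.87 (2.43 to 3.32) and 3.45 (2.998 to 3.90), where 1.57% of all genes were called higher. At 24 h Fcgr1, Fcgr4 and Fcer1g were higher by 2.80 (2.36 to 3.25), 4.30 (3.85 to 4.75) and 0.93 (0.53 to 1.34), where 1.45% of genes were. These intervals are from limma's moderated fit, whose adjusted p was 8.87e-13 and 1.01e-14 for Fcgr1 and Fcgr4 at 6 h, and 3.71e-12, 4.29e-17 and 0.00319 for Fcgr1, Fcgr4 and Fcer1g at 24 h. The p-values depended on the moderation of the variance across genes, but the calls did not: without it, adjusted p = 0.000578 and 0.00042 for Fcgr1 and Fcgr4 at 6 h, and 0.00118, 0.000295 and 0.00364 for Fcgr1, Fcgr4 and Fcer1g at 24 h (limma linear model). Fcer1g at 6 h differed from Fcgr2b by 0.38 (-0.02 to 0.79) and did not pass, with limma adjusted p = 0.176 in the moderated fit and 0.0632 without moderation (unadjusted 0.00393). Fcgr3 differed from Fcgr2b by -0.15 (-0.56 to 0.26) at 6 h and -0.10 (-0.51 to 0.31) at 24 h and did not pass. At 1.5 h 0 of the 4 differences passed, with 0.477% of all genes called higher, and by the moderated test 3 of the 4 (Fcgr1 at 0.64, Fcgr4 at 0.59 and Fcer1g at 0.47) had an unadjusted p under 0.05, as did 7.24% of all genes in that fit.

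**Figure D3:**
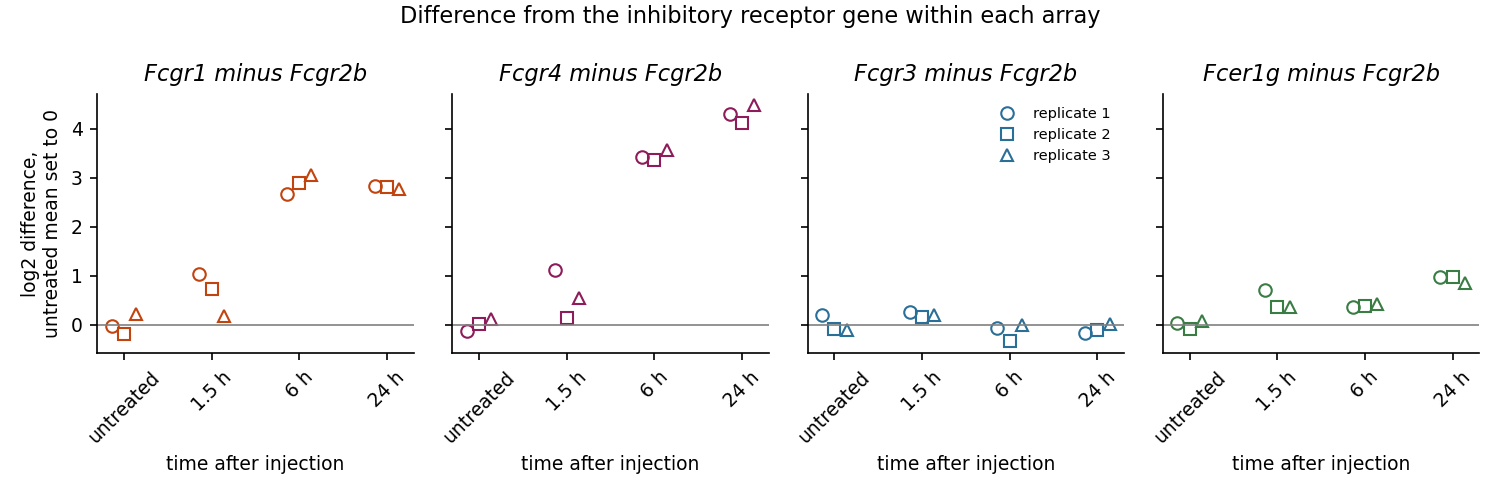
Log2 value of each activating gene minus that of Fcgr2b on the same array, with the mean of the 3 untreated arrays set to 0 (open symbols, by replicate number, grey line at 0). Fcgr1 lay between 2.67 and 3.06 at 6 h, Fcgr4 between 4.12 and 4.48 at 24 h, and Fcgr3 stayed between -0.34 and 0.26 on all arrays.

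The genes whose values ran most like each receptor gene over the 12 arrays were named by their Pearson correlation, which counts the time course as well as the spread between replicates. Fcgr1 ran most like Rtp4, an interferon-induced gene (r = 0.992), Hk3, a hexokinase of myeloid cells (0.987), Timp1, a metalloproteinase inhibitor (0.987), and Irf7, the interferon regulatory factor (0.987). Fcgr4 ran most like Cfb, a complement factor (0.993), Bst2 or tetherin (0.992), Ms4a4c, a monocyte gene (0.992), and Irf7 (0.987). Fcgr1 and Fcgr4 correlated with each other at 0.977, and 12 of the other 19937 genes ran closer to Fcgr4 than Fcgr1 did. All 7 neighbours of these 2 genes were higher at 6 h and at 24 h. Their choice by correlation over these same arrays makes that likely, so it is not a separate result. Rtp4 was 7.33-fold higher at 6 h and Bst2 7.78-fold higher at 24 h (limma adjusted p = 1.51e-07 and 5.59e-08).

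Fcer1g ran most like C1s1, a complement protease (r = 0.98), Psma4, a proteasome subunit (0.976), Srgn, the proteoglycan of leukocyte granules (0.974), and Ifi27l2a, an interferon-induced gene (0.973). All 4 were higher at 24 h, between 1.36-fold (Psma4, limma adjusted p = 0.0327) and 2.76-fold (Srgn, limma adjusted p = 0.000629), which their choice by correlation likewise makes likely. Fcgr2b ran most like the chemokine gene Ccl8 (r = 0.961), the complement gene C4b (0.932), the lysosomal gene Lamp2 (0.93) and Ms4a4a (0.914), a gene of macrophages. Fcgr3 ran most like Ctsb, a lysosomal protease (r = 0.924), Hes6 (0.892), Cfp or properdin (0.886) and C1qc, a macrophage complement gene (0.883). None of these 8 neighbours of Fcgr2b and Fcgr3, chosen in the same way, passed at any time. The lowest sample of a group was shared, with untreated replicate 2, 6 h replicate 2 and 24 h replicate 1 each the lowest of their group for all 5 receptor genes. In those arrays the median of the macrophage markers stood at -0.38, -0.27 and 0.23 relative to untreated skin, the lowest of each group. The medians of the inflammatory monocyte markers (-0.33, 0.36 and 0.91) and of the phagocyte effector genes (-0.24, -0.09 and 0.79) were also the lowest there. The median of the 5 genes shared by leukocytes was the lowest there in untreated and 24 h skin (-0.26 and 0.97). At 6 h it was lowest in replicate 3 (0.16, against 0.57 in replicate 2). At 1.5 h, replicate 2 was the lowest for 4 of the 5 receptor genes and for the macrophage and effector medians (0.05 and 0.08). The monocyte median was lowest in 1.5 h replicate 3 (0.12, against 0.18 in replicate 2). The part of these lists in the result was not tested.

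The genes next to the receptor genes on the chromosome were looked up in the same comparisons. Of 18 protein-coding genes among the 3 on either side of each receptor gene, 14 were measured. At 24 h 0 of them passed, with changes from -0.19 to 0.53, where 2.55% of all genes were called higher. At 6 h, where 3.38% of all genes were called higher, 1 of the 14 passed. It was Adamts4, a metalloproteinase gene beside Fcer1g (1.19, limma adjusted p = 0.00126), and the others lay between -0.38 and 0.31. Fcgr2b, Fcgr4 and Fcgr3 lie next to one another on chromosome 1 and are counted as members, not as neighbours.

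Of 13 other Fc receptor genes measured, 1 was higher at 6 h and at 24 h and 12 did not pass. That gene was Trim21, a cytosolic receptor for antibody-coated virus, with 9.02, 8.78 and 8.67 at 6 h, against 6.95, 6.55 and 6.86 in untreated skin (4.09-fold, limma adjusted p = 1.91e-07), and 2.38-fold higher at 24 h. The list's median change was 0.26 at 6 h and -0.07 at 24 h, where the median of all genes was -0.04 and 0.00075. Fcgrt, the neonatal Fc receptor, was not analysed here.

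Fcer1g also serves receptors other than those for IgG. Of 9 measured receptors that pair with its product, 1 was higher at 1.5 h, 2 at 6 h and 3 at 24 h, with list medians of 0.24, 0.25 and 0.46. Clec4e (Mincle), a receptor of mycobacterial glycolipid, was higher at all 3 times: 3.14-fold at 1.5 h, 4.55-fold at 6 h and 10.2-fold at 24 h (limma adjusted p = 0.00535, 5.48e-05 and 1.45e-06). Clec4d, its partner in the membrane, was 3.12-fold higher at 6 h and 3.22-fold higher at 24 h. Ncr1, the activating receptor NKp46 of NK cells, was 3.95-fold higher at 24 h (limma adjusted p = 4.22e-05).

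Downstream of the activating receptors, 28 ITAM signalling genes were measured, of which 0 passed at 1.5 h, 3 were higher at 6 h and 9 at 24 h, with list medians of -0.03, 0.03 and 0.19. Syk itself did not pass, with 6.67, 7.05 and 6.81 at 24 h, against 6.74, 6.36 and 6.58 in untreated skin (change 0.29, limma adjusted p = 0.269). The adaptor Lcp2 (SLP-76) was 2.10-fold higher at 6 h and 2.29-fold at 24 h (limma adjusted p = 0.00918 and 0.00548). Rac2, a GTPase of the oxidative burst, was 2.38-fold higher at 24 h (limma adjusted p = 0.0448) and the Src family kinase gene Fgr 2.16-fold (0.00341). Tyrobp, an ITAM adaptor of other myeloid and NK receptors, was 1.82-fold higher at 24 h (limma adjusted p = 0.0282). Leaving out untreated replicate 2 or 24 h replicate 2 gave a count of 4 at 24 h, and leaving out 24 h replicate 3 gave 5.

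On the inhibitory side, 19 genes were measured: ITIM receptors, phosphatases and other inhibitory signalling genes such as Dok1, Csk and Cbl. Of these, 1 was higher at 1.5 h, 2 at 6 h and 5 at 24 h, with list medians of 0.08, 0.08 and 0.34. Inpp5d, the phosphatase that Fcgr2b recruits, did not pass (change -0.15 at 6 h and 0.40 at 24 h, limma adjusted p = 0.605 and 0.22). Lair1, an inhibitory receptor for collagen, was 5.28-fold higher at 24 h (limma adjusted p = 8.69e-07). Lilrb4a was 3.14-fold higher at 6 h and 3.82-fold at 24 h, and Pirb 2.36-fold at 24 h (limma adjusted p = 5.61e-05); both encode inhibitory receptors of myeloid cells. Of 14 phagocyte effector genes 1, 2 and 8 were higher at the 3 times, led at 24 h by Nos2, the inducible nitric oxide synthase (5.46-fold, limma adjusted p = 4.22e-05), Ctss, a lysosomal protease (2.44-fold), and Cyba, an oxidase subunit (2.22-fold). Leaving out untreated replicate 2 or 24 h replicate 3 gave 3 at 24 h, leaving out 24 h replicate 2 gave 4, and leaving out 1.5 h replicate 3 or 6 h replicate 3 gave 5. The counts of 1 at 1.5 h in these lists, Cd300lf and Ncf1, were each 0 without 1.5 h replicate 1.

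Among 24 known regulators of Fc receptor expression, 4 were higher at 1.5 h, 10 higher and 1 lower at 6 h, and 9 higher at 24 h, with list medians of 0.20, 0.41 and 0.36. Ifnb1, which encodes interferon beta, measured 8.10, 7.85 and 7.34 at 1.5 h, 5.89, 5.96 and 5.87 at 6 h and 4.23, 4.53 and 4.43 at 24 h, against 3.32, 3.59 and 3.35 in untreated skin. It was thus highest at 1.5 h, when neither Fcgr1 nor Fcgr4 passed. Ifng, which encodes interferon gamma, had a change of -0.13 at 1.5 h, 0.51 at 6 h and 0.39 at 24 h and did not pass (limma adjusted p = 0.746, 0.0869 and 0.249). Irf7 was 9.99-fold higher at 6 h and 13.1-fold at 24 h, and Stat2 5.23-fold and 3.50-fold.

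Irf1, an interferon-induced activator, was 1.84-fold higher at 1.5 h, 4.62-fold at 6 h and 2.47-fold at 24 h (limma adjusted p = 0.00552, 1.22e-07 and 3.04e-05). Irf8, a factor of monocytes and dendritic cells, was 2.08-fold higher at 6 h and 1.76-fold at 24 h. Spi1, which encodes PU.1, was 2.06-fold higher at 24 h (limma adjusted p = 0.00444), with a change of 0.62 at 6 h that did not pass (0.0642). Il10, which encodes an anti-inflammatory cytokine, was 5.33-fold higher at 6 h and 2.15-fold at 24 h. The gene lower at 6 h was Cebpa, a myeloid factor (-0.39, limma adjusted p = 0.0459), a call held in 9 of 24 alternatives. At 1.5 h the count of 4 was 2 without any 1 of the 3 libraries of that time or without untreated replicate 2 or 3.

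Markers of cell types that carry Fc gamma receptors moved unequally. Of 14 macrophage markers 0, 1 and 3 were higher at 1.5 h, 6 h and 24 h and 1, Cd163, was lower at 6 h (-0.77, limma adjusted p = 0.0437), a call held in 11 of 24 alternatives. The mean level of the list overlapped between groups: it was 8.18 to 8.87 at 6 h and 8.56 to 8.87 at 24 h, against 8.16 to 8.78 in untreated skin. Csf1r, the receptor for the macrophage growth factor, measured 8.69, 8.97 and 8.99 at 24 h, against 9.36, 8.82 and 9.13 in untreated skin (change -0.22, limma adjusted p = 0.574). Cd68 had a change of 0.23 at 6 h and 0.55 at 24 h and did not pass. Adgre1 (F4/80) was 1.85-fold higher at 24 h (limma adjusted p = 0.0422), a call held in 15 of 24 alternatives. Timd4 was 3.32-fold higher at 6 h. The 24 h count was 0 without untreated replicate 2, 24 h replicate 2 or 24 h replicate 3, and 1 without untreated replicate 1, 1.5 h replicate 3 or 6 h replicate 3.

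Of 10 inflammatory monocyte markers 2, 4 and 5 were higher at the 3 times, with list medians of 0.41, 0.63 and 1.13. The list mean was 8.75 to 9.15 at 6 h and 9.13 to 9.48 at 24 h, against 7.64 to 8.12 in untreated skin, so these groups did not overlap. Ms4a4c was 14.4-fold higher at 6 h and 22.3-fold at 24 h, Plac8 5.97-fold and 6.59-fold, and Ccr2, the receptor that brings monocytes into tissue, 2.42-fold at 24 h. The 1.5 h count was 0 without 1.5 h replicate 1, 1.5 h replicate 2 or untreated replicate 2 and 1 without any other array of those 2 groups. At 6 h the other 6 of the 10 did not pass, among them Itgam, Ccr2, Cd14, Lyz2 and Fn1, with changes of -0.00081, -0.05, 0.06, 0.10 and -0.19. The list mean, like Fcgr1 and Fcgr4, was higher at 6 h and 24 h, and its part in their rise was not tested. The list holds Ms4a4c, named above among the 4 genes that ran most like Fcgr4, so the likeness is partly built in.

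Of 12 NK cell markers 0 passed at 1.5 h, 4 were higher at 6 h and 11 at 24 h, with list medians of 0.19, 0.51 and 1.72. With the filter on dim genes, which takes genes of low signal out of the fit, the 24 h count was 6. The list mean was 5.36 to 5.55 at 6 h and 6.40 to 6.82 at 24 h, against 4.67 to 4.72 in untreated skin. Gzmb and Gzma, the granzyme genes, were 30.6-fold and 20.3-fold higher at 24 h. Fcgr3, the receptor gene of mouse NK cells, had a change of 0.26 at that time, and the 2 values were not tested against each other. Of 13 neutrophil markers 4, 3 and 4 were higher at the 3 times, with list medians of 0.65, 0.71 and 0.41. Among them was Csf3r at 6 h (2.18-fold) and 24 h (1.97-fold), while S100a8 had a change of -0.42 at 6 h and -0.67 at 24 h and did not pass. The mean of S100a9 was 9.26 at 1.5 h, 8.40 at 6 h and 8.29 at 24 h, against 6.93 in untreated skin. The neutrophil list mean was 6.09 to 6.68 at 6 h and 6.27 to 6.41 at 24 h, against 5.66 to 5.97 in untreated skin, and at 1.5 h its count was 0 without untreated replicate 2 or 3, 1 without 1.5 h replicate 1 or 2, and 2 without 1.5 h replicate 3 or 6 h replicate 3. Leaving out untreated replicate 2 or 3 or 24 h replicate 2 or 3 gave 2 at 24 h, and leaving out 6 h replicate 2 gave 5 at 6 h.

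Of 5 genes shared by leukocytes 0, 2 and 4 were higher at the 3 times, with Ptprc (CD45) 1.84-fold higher at 6 h and 2.22-fold at 24 h (limma adjusted p = 0.027 and 0.00718). Leaving out any 1 array of untreated or 24 h skin, or 1.5 h replicate 3, gave 2 at 24 h, and leaving out untreated replicate 1 or 2 or 6 h replicate 1 or 3 gave 1 at 6 h. Of 13 mast cell and basophil markers 2, 1 and 1 were higher and 1, 1 and 0 lower at the 3 times. Hdc, the histamine-forming enzyme, was 2.47-fold higher at 6 h and 2.43-fold at 24 h, and is counted among the neutrophil markers as well. Mrgprb2, a mast cell receptor, was lower at 6 h (-0.69), and Cpa3, a mast cell protease gene, did not pass at any time. The 1.5 h counts of 1 or 2 in the ITIM, effector, monocyte and mast cell lists were each 0 without at least 1 of the 6 arrays compared. No marker of B cells (9), T cells (8), platelets (4) or lymph node vessels (3) passed at any time, although 1 B cell marker and 1 vessel marker passed at 6 h without 1.5 h replicate 1. A T cell marker, Cd8a, passed at 24 h without both arrays high in Glycam1 and with only the groups compared in the fit (change 0.64 with all arrays, limma adjusted p = 0.408, and as low as 0.00888 in those alternatives). The B cell list median was 1.87 and 1.55 in 1.5 h replicate 1 and 6 h replicate 1, against -0.14 to 0.29 on the other 10 arrays. Of 10 dendritic and Langerhans cell markers Cd209a was lower at 1.5 h and 24 h (-0.62 and -1.09). Of 9 skin genes Krt1 and Lor, of the outer epidermis, were lower at 24 h (-0.44 and -0.46).

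**Figure D4:**
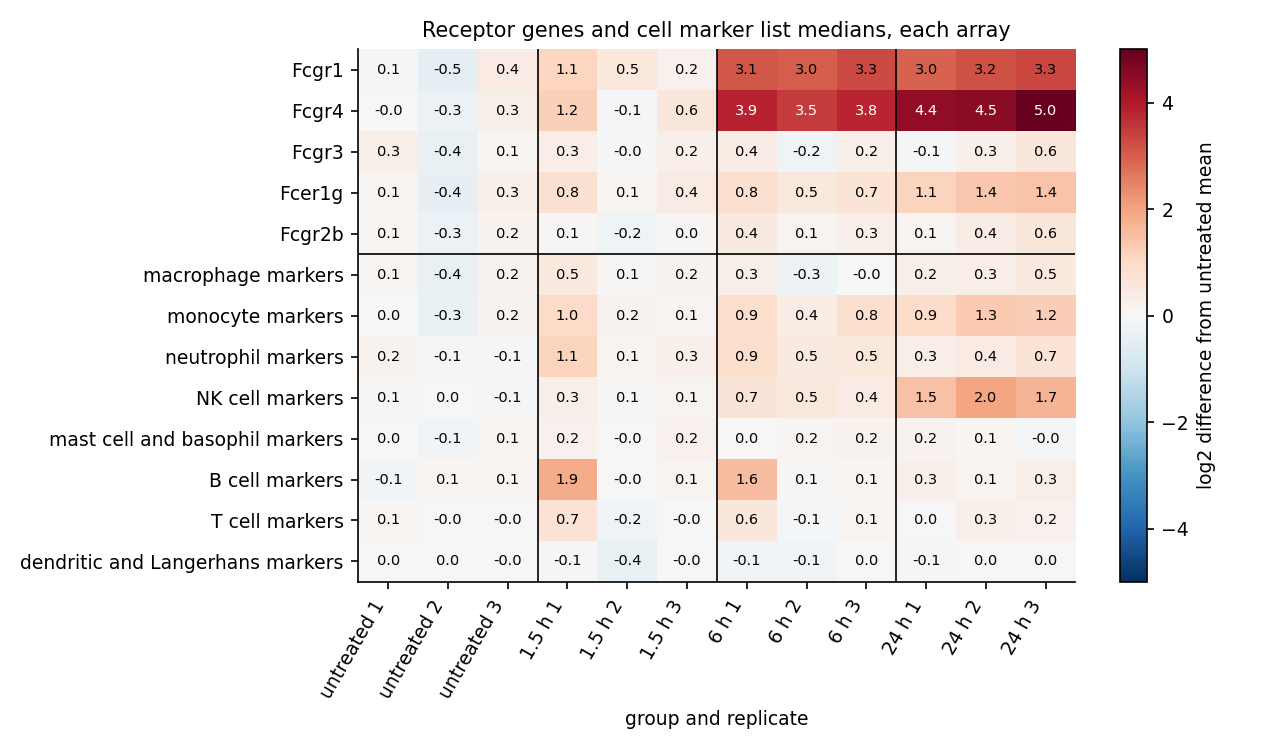
Log2 difference of each receptor gene, and of the median of each cell marker list, from the untreated mean on each of the 12 arrays (columns by group and replicate; red above 0, blue below). Fcgr1 and Fcgr4 stood well above untreated skin on all 6 h and 24 h arrays, the NK cell list reached 1.97 at 24 h, and the B cell list stood out in 1.5 h replicate 1 and 6 h replicate 1.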

How the data were processed

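Mouse skin was measured on 12 arrays, 3 in each of 4 groups given by the labels. The deposited values are log2 intensities. Per the submitters' processing notes, the authors summarised the arrays by RMA with Expression Console 1.1 of Affymetrix. Values of 35556 probe sets run from 0.65 to 14.11, with no detection calls. Of these, 21789 had 1 gene symbol in the platform annotation, and the probe set with the highest mean was kept where a gene had several, which left 19938 genes. No depth or counting error is defined for arrays, and 3 arrays a group limit the precision.

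The 4 groups entered 1 linear model in limma 3.58.1 (R 4.3.3; lmFit, then eBayes, 8 residual and 5.24 prior degrees of freedom). There were 6 comparisons, tests are two-sided, and Benjamini-Hochberg adjustment ran over the 19938 genes of each comparison, with an adjusted p under 0.05 called a change. A change is the later group minus the earlier or untreated one. Intervals are 95%, from the moderated fit. Differences from Fcgr2b were taken within each array and fitted over all genes, with 28.9 prior degrees of freedom. The fit was tested on simulated data.

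The members, the gene lists and the alternatives were chosen with earlier results of these data known. Named genes are the receptor genes, the 4 genes with the highest correlation to each (predicted genes skipped), up to 3 members of each list with the largest called change and the largest called the other way, and a set of defining genes. Lists are described by counts and medians without a set test. Promoters are RefSeq's (GRCm38.p6). Alternatives were a replicate block, leaving out each array or both arrays high in Glycam1, other variance models, array weights, a filter on dim genes, 3 scalings, the mean of a gene's probe sets, and only the groups compared.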

Additional observations from a re-analysis of the deposited data

Results flagged for a closer look

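The effect of the injection differed between times for 3 of the 5 receptor genes, by the limma test of one time against another, which is the difference between their effects over the same untreated skin. Fcgr1 was higher at 6 h than at 1.5 h by 2.54 log2 units (limma adjusted p = 8.10e-06) and at 24 h than at 1.5 h by 2.56 (1.62e-05). Fcgr4 was higher at 6 h than at 1.5 h by 3.17 (limma adjusted p = 3.66e-06) and at 24 h than at 1.5 h by 4.10 (7.99e-07). Fcer1g was higher at 24 h than at 1.5 h by 0.85 (limma adjusted p = 0.021), a call held in 19 of 24 alternatives. Of all genes, 5.47% were called higher between 6 h and 1.5 h and 2.24% between 24 h and 1.5 h. No formal test for outlying arrays was run, since each group holds 3. The arrays high in Glycam1 are described above, and each array was left out in turn.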

How the results depend on the processing

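Against untreated skin, the calls of Fcgr1 and Fcgr4 at 6 h and 24 h and of Fcer1g at 24 h held in all 24 alternatives, as did those of Fcgr1 and Fcgr4 against 1.5 h, and 0 members passed at 1.5 h in any. Deviations of same-numbered arrays correlated at -0.215 to 0.334 (18 pairs, median 0.0464) and of others at -0.285 to 0.238 (median 0.0049). The value of 0.334 was that of 1.5 h replicate 1 with 6 h replicate 1, the arrays high in Glycam1. These values cannot show whether samples of the same number shared a day or batch, and the main fit took them as unpaired. The replicate block gave 1 member called between 24 h and 6 h (Fcgr4, limma adjusted p = 0.0382) in place of 0, as did leaving out both arrays high in Glycam1 (0.0374) and fitting only the groups compared (0.041). The filter on dim genes and median centring gave 2 (Fcgr4 0.0456 and 0.0442, Fcer1g 0.0468 and 0.0459), and leaving out 1 array gave 0 to 1. Between 24 h and 6 h Fcgr4 passed in 7 of 24 alternatives and Fcer1g in 2 of 24. Fcer1g at 6 h against untreated skin passed with the replicate block (adjusted p = 0.0354) and between 0.0337 and 0.145 when 1 array was left out. The other changes of sign were of values that did not pass. Fcgr1 between 24 h and 6 h was -0.0056 without both Glycam1 arrays, -0.049 with array weights, -0.060 with quantile scaling and -0.083 with cyclic loess. Fcgr3 relative to Fcgr2b at 6 h was 0.047 with array weights, Fcgr2b at 1.5 h was 0.067 with median centring, Fcgr3 between 6 h and 1.5 h was 0.021 with quantile scaling and 0.10 with cyclic loess, and Fcgr2b between 24 h and 6 h was -0.035 with cyclic loess. With 1 array left out, values ran from -0.178 to 0.0623 (Fcgr2b, 1.5 h) and, for Fcgr3, from -0.0209 to 0.320 (1.5 h), -0.059 to 0.302 (6 h), -0.155 to 0.131 (6 h against 1.5 h), -0.0393 to 0.290 (24 h against 6 h) and -0.0661 to 0.251 (24 h against 1.5 h). Between 24 h and 6 h they ran from -0.0779 to 0.116 (Fcgr1) and -0.0264 to 0.198 (Fcgr2b), and Fcgr3 relative to Fcgr2b at 24 h from -0.148 to 0.00234. The cause was not tested. Without moderation of the variance, fewer genes of several lists were higher at 24 h. The counts were 2 for ITAM signalling, 3 for phagocyte effectors, 5 for regulators and 3 for monocyte markers. They were 0 for macrophage markers, 2 for neutrophil markers and 1 for genes shared by leukocytes. After median centring the median change of all genes was 0.123 (1.5 h), -0.168 (6 h against 1.5 h) and 0.107 (24 h against 6 h), where it was 0.0225, -0.0345 and 0.0165 as deposited, and the share of higher among called genes at 1.5 h was 27.8% as deposited and 56.9% after it.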
